A study of Mus musculus with 6 samples.

Results

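Collagens and the other structural proteins of the extracellular matrix were examined in the submandibular gland, a major salivary gland. With earlier results of these data known, the genes were chosen by name. They form a list of 45 collagens, glycoproteins, proteoglycans, collagen-processing enzymes and stromal cell genes. Of these, 41 had a probe set with their symbol, out of 19505 named genes on the array, and 4 were not analysed here. Each of the 41 was measured by 1 probe set.

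The glands came from 3 Myd88−/− and 3 Myd88+/+ mice, all female, 10 weeks old and on the NOD.B6 strain background, with 1 Clariom S array of total RNA per mouse. Both genotypes therefore share the NOD background, known for spontaneous autoimmune diabetes and sialadenitis, and neither received a treatment according to the labels. Myd88 is an adaptor protein of innate immunity: Toll-like receptors and interleukin-1 family receptors recruit it to switch on inflammatory genes. The labels name no tissue restriction of the Myd88 allele and no shared litter, and they do not say how far the segment around Myd88 differs between the genotypes.

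Matrix proteins are made mostly by fibroblasts and, in basement membranes, also by epithelium, endothelium and muscle-like cells. Fibrillar collagens are assembled from chains that fold into a triple helix, are trimmed outside the cell and are then cross-linked by lysyl oxidases. Small proteoglycans bind the fibrils and set their spacing, elastic fibres are laid on a microfibril scaffold, and type IV collagen and laminins form the sheet under epithelium and around vessels. In salivary glands this matrix surrounds acini and ducts and carries the vessels, nerves and infiltrating leukocytes.

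Expression is given throughout on the log2 scale of RMA, the robust multi-array average, where a difference of 1 is a 2-fold change. Array medians lay between 6.0 and 6.10 in Myd88−/− and between 6.0 and 6.06 in Myd88+/+ glands. The width of an array's values, measured between its 10th and 90th percentiles and called span here, was 6.97 ± 0.15 in Myd88−/− and 7.20 ± 0.10 in Myd88+/+ arrays (SD, n = 3 each; two-sided exact permutation p = 0.2, where 0.1 is the smallest that 3 mice against 3 allow). The median over the 6 arrays of 23 background control probe sets was 5.55. Of 11 submandibular gland markers measured, most were bright in every array. The acinar water channel gene Aqp5 read 13.76 to 13.95 in Myd88−/− and 13.74 to 14.32 in Myd88+/+ glands. The keratin gene Krt18 read 13.76 to 13.87 in Myd88−/− and 13.66 to 13.99 in Myd88+/+ glands. Klk1 and Prol1 read 19.93, the highest value of the scale, in every gland. Smr3a was low, at 6.05 to 6.85 in Myd88−/− and 6.06 to 6.26 in Myd88+/+ glands. Myd88+/+ replicate 3 stood apart: Dcpp3, a secreted protein of demilune and parotid cells, read 14.91 there, against 4.80 to 6.59 in Myd88−/− glands and 4.65 and 4.70 in the other Myd88+/+ glands. The Myd88 probe set gave 7.33, 6.80 and 7.47 in Myd88−/− glands, against 7.81, 7.86 and 7.53 in Myd88+/+ glands, without overlap (limma's adjusted p = 0.462), and the sources used here do not place these probes inside or outside the deletion.

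Of the 41 matrix genes, 16 read lower in Myd88−/− than in Myd88+/+ glands at an unadjusted p under 0.05 and 0 read higher. The 16 included the type I and III collagen chains Col1a2 and Col3a1, the proteoglycans Bgn and Prelp, the collagen-binding glycoprotein Sparc and the stromal gene Islr, at 1.77-fold to 2.84-fold lower levels. Among the 9 genes with a difference above 0, the largest were those of Col16a1, a collagen on the surface of fibrils, with 0.58, the elastic fibre gene Fbln5 with 0.34 and the type V chain Col5a3 with 0.31. None of the 41 genes passed limma's test at an adjusted p under 0.05 over all 22206 tested probe sets, and neither did any other probe set (0 of 22206, or 0% lower and 0% higher), against 2232 at an unadjusted p under 0.05. Every difference below is therefore a measured difference that did not pass.

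Of the 41 genes, 32 had a difference below 0, 78.0%, against 47.5% of all tested probe sets. At an unadjusted p under 0.05, 16 were lower (39.0%) and 0 higher, against 5.55% lower and 4.5% higher of all tested probe sets. In 13 genes (31.7%) every Myd88−/− value lay below every Myd88+/+ value, and in 0 genes above, against 7.25% and 7.84% of all probe sets. The median difference was −0.42, against 0.02 over all tested probe sets. At least 2-fold lower at an unadjusted p under 0.05 were 5 genes, Islr, Sparc, Bgn, Col1a2 and Col3a1, against 0.725% of all probe sets. Most of these genes are bright: 35 of 41 lay in the brighter 50% of probe sets, where differences ran lower in general and the median was −0.07. Of those 35 genes, 27 were below 0 (60.6% of the brighter probe sets), 14 were lower and 0 higher at an unadjusted p under 0.05 (8.95% and 2.95%), and 5 were at least 2-fold lower (1.22%). In 11 of the 35 all Myd88−/− values lay below all Myd88+/+ values and in 0 above, against 11.2% and 5.08% of the brighter probe sets, and the median of the 35 was −0.46. Since the genes were chosen with earlier results of these data known, these shares describe the list and are no independent test.

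Single mice moved these counts. Without Myd88+/+ replicate 3, 29 genes had a difference below 0 and 9 were lower at an unadjusted p under 0.05. That second count was 7 when Myd88−/− replicate 3 was left out, and 10 when Myd88+/+ replicate 2 was. It was 20 when Myd88−/− replicate 2 was left out. Myd88−/− replicate 3 held the lowest value of all 6 glands in 22 of 41 genes, and Myd88+/+ replicate 3 the highest in 21. The mean over the 41 genes of the log2 value minus each gene's own mean was −0.18 in Myd88−/− replicate 1, −0.05 in replicate 2 and −0.34 in replicate 3. The Myd88+/+ glands had 0.02, 0.17 and 0.37 in the same order. In bulk tissue, fewer cells of a type and less RNA per cell cannot be told apart.

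**Figure D1:**
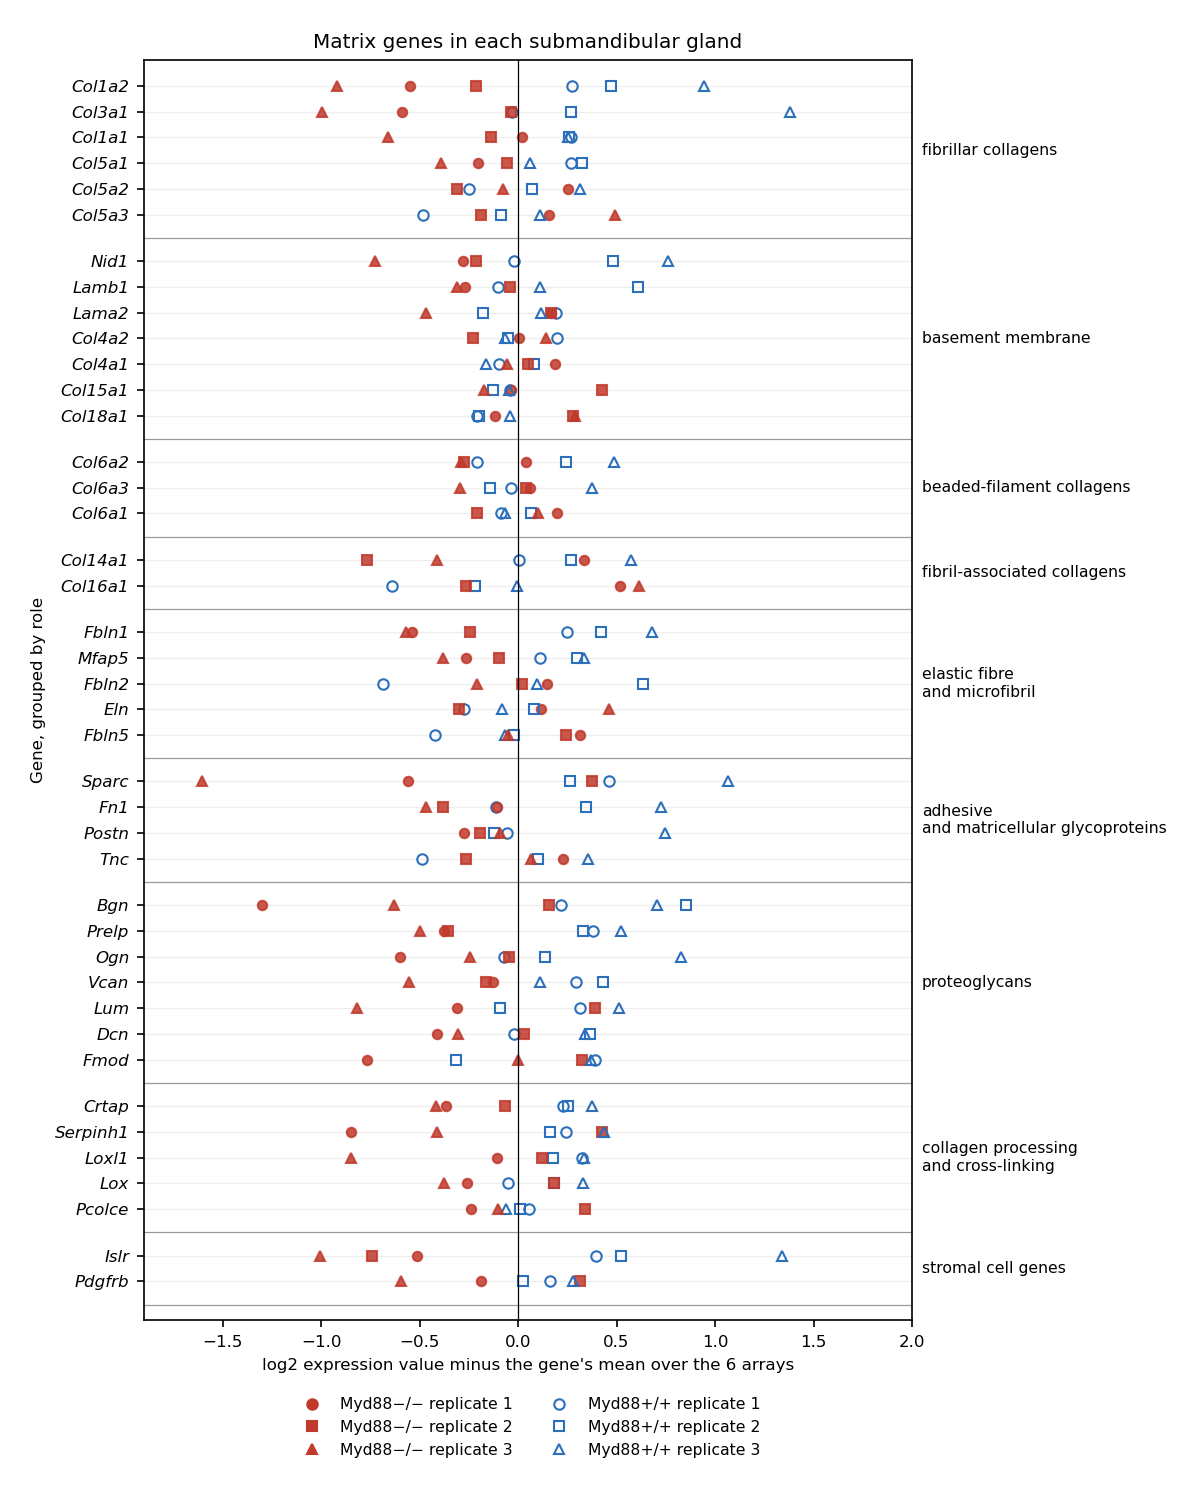
Each row is a matrix gene and each point 1 gland, as its log2 expression value minus the gene's mean over the 6 arrays, grouped by role; filled red symbols are Myd88−/− and open blue symbols Myd88+/+ glands, with the symbol shape giving the replicate. In Col1a2, Fbln1, Prelp and Islr the colours separate, whereas in the Col4 and Col6 chains they are mixed.

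**Figure D2:**
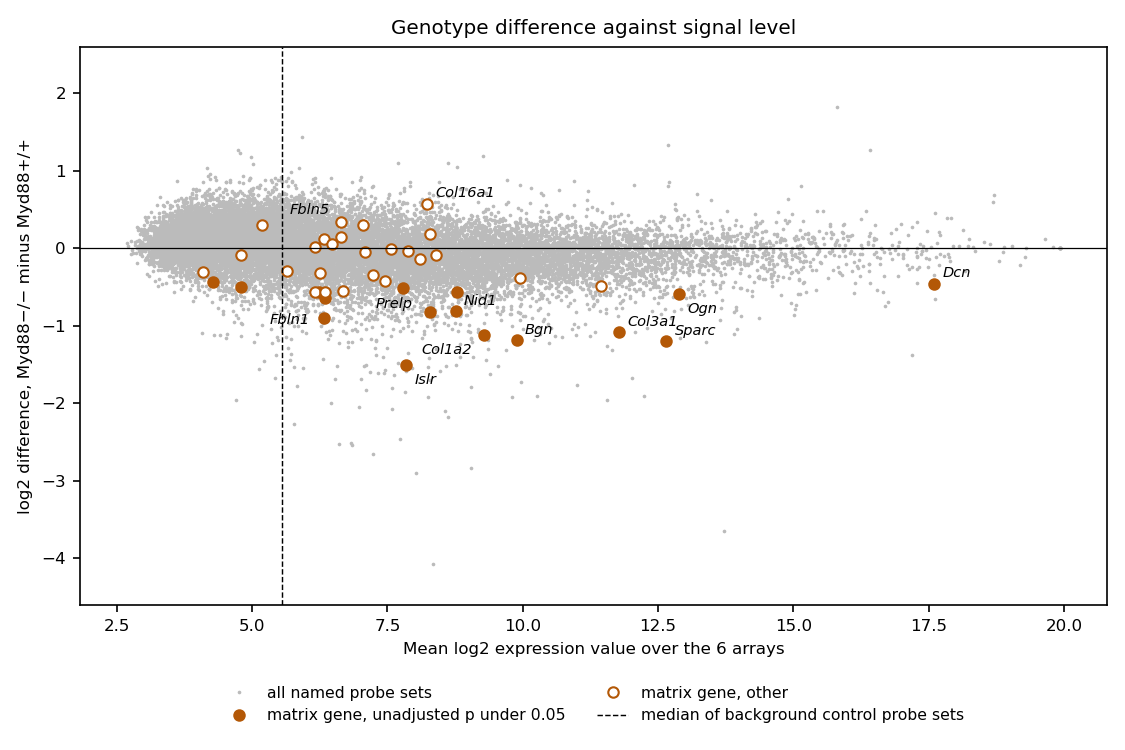
The log2 difference, Myd88−/− minus Myd88+/+, of each named probe set is plotted against its mean log2 value over the 6 arrays, with the 41 matrix genes in orange (filled: unadjusted p under 0.05) and the background control median of 5.55 as a dashed line. The 16 filled genes all lie below 0, and 2 of them, Col5a1 and Mfap5, lie left of the line.

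The fibrillar collagens are the rope-like collagens of connective tissue. In replicate order 1, 2 and 3, which is kept below, Col1a2, the second chain of type I collagen, read 8.74, 9.08 and 8.37 in Myd88−/− glands, against 9.56, 9.76 and 10.23 in Myd88+/+ glands. The groups did not overlap, the log2 difference was −1.12 with a standard error (SE) of 0.24, and limma's adjusted p was 0.323. Col1a1, the other chain of type I collagen, read 7.81, 7.65 and 7.13, against 8.06, 8.04 and 8.04 in Myd88+/+ glands. All 3 Myd88+/+ glands gave nearly the same Col1a1 value (SD 0.01), and the difference of −0.52 (SE 0.20, limma's adjusted p = 0.457) was −0.32 without Myd88−/− replicate 3. The size of the difference therefore varied between the chains of 1 trimer, a contrast that was not tested. Col3a1, the chain of type III collagen in loose stroma, read 11.19, 11.74 and 10.78 in Myd88−/− glands, against 11.75, 12.05 and 13.16 in Myd88+/+ glands. Myd88−/− replicate 2 and Myd88+/+ replicate 1 were nearly level, and the difference of −1.08 (SE 0.37, limma's adjusted p = 0.428) was −0.66 without Myd88+/+ replicate 3.

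Type V collagen regulates the diameter of type I fibrils, and its chains did not share a direction. Col5a1 read 4.07, 4.22 and 3.89 in Myd88−/− glands, against 4.54, 4.60 and 4.33 in Myd88+/+ glands, without overlap and with a difference of −0.43. Col5a2 read 5.05, 4.49 and 4.72 in Myd88−/− glands, against 4.55, 4.87 and 5.11 in Myd88+/+ glands, with overlap. Its difference was −0.09 with an SE of 0.21, and it was 0.05 without Myd88+/+ replicate 3. Col5a3 read 5.35, 5.0 and 5.68, against 4.71, 5.10 and 5.30 in Myd88+/+ glands, a difference of 0.31 with overlap. Because all 3 type V probe sets averaged under the background control level of 5.55, the sizes of these differences are uncertain.

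Of the 7 basement membrane genes, 4 had a difference below 0 (57.1%) and 1, Nid1, was lower at an unadjusted p under 0.05 (14.3%). All 7 were among the brighter probe sets, of which 60.6% were below 0 and 8.95% lower at that threshold. Col4a1 and Col4a2, the chains of the common type IV collagen trimer, had differences of 0.12 (SE 0.17) and −0.05 (SE 0.18). Col4a1 read 6.52, 6.39 and 6.28 in Myd88−/− glands, against 6.24, 6.42 and 6.18 in Myd88+/+ glands, and the groups overlapped. Col4a2 read 7.10, 6.86 and 7.23, against 7.29, 7.04 and 7.02 in Myd88+/+ glands, also with overlap. Nid1, nidogen, which links the laminin and type IV collagen networks, read 8.48, 8.54 and 8.03 in Myd88−/− glands, against 8.74, 9.24 and 9.52 in Myd88+/+ glands. No Nid1 values overlapped, and the difference was −0.81 (SE 0.24, limma's adjusted p = 0.388), or −0.64 without Myd88+/+ replicate 3. Lamb1, a laminin beta chain, averaged 7.24 ± 0.14 in Myd88−/− and 7.66 ± 0.36 in Myd88+/+ glands, a difference of −0.42 that was −0.21 without Myd88+/+ replicate 2. Lama2, the laminin chain of muscle and nerve sheaths, averaged 8.36 ± 0.37 in Myd88−/− and 8.45 ± 0.20 in Myd88+/+ glands (SD over 3 mice). Col15a1 and Col18a1, the collagens of the zone next to basement membranes, had differences of 0.14 and 0.30. In all 6 of these genes other than Nid1 the groups overlapped.

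Type VI collagen forms beaded filaments around cells from 3 chains. Col6a1 read 6.67, 6.27 and 6.57 in Myd88−/− glands, against 6.39, 6.54 and 6.41 in Myd88+/+ glands. Col6a2 read 7.28, 6.96 and 6.95, against 7.03, 7.48 and 7.73 in Myd88+/+ glands. Col6a3 read 8.17, 8.15 and 7.81, against 8.07, 7.97 and 8.49 in Myd88+/+ glands. The groups overlapped in all 3 chains, with differences of 0.06, −0.35 and −0.13 and standard errors of 0.17, 0.21 and 0.20, and Col6a2 was at −0.19 when Myd88+/+ replicate 3 was left out. Of the 15 collagen chains measured, 9 had a difference below 0, or 60%, against 47.5% of all tested and 60.6% of the brighter probe sets. At an unadjusted p under 0.05, 4 were lower, all 4 of them fibrillar, or 26.7%, against 5.55% and 8.95%. Of the 15, 12 were among the brighter probe sets, and the median of the 15 was −0.09. A test that fibrillar chains differ more than the others was not run.

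The 2 measured collagens that sit on the surface of fibrils had differences of opposite sign. Col16a1 read 8.75, 7.97 and 8.84 in Myd88−/− glands, against 7.59, 8.01 and 8.22 in Myd88+/+ glands, the largest positive difference among the 41 genes at 0.58 (SE 0.27, limma's adjusted p = 0.513). Myd88−/− replicates 1 and 3 lay above every Myd88+/+ gland and replicate 2 lay among them, so the difference was 0.85 without replicate 2. Col14a1 averaged 5.88 ± 0.56 in Myd88−/− and 6.45 ± 0.28 in Myd88+/+ glands (SD over 3 mice), a difference of −0.56 with overlap. Leaving out Myd88−/− replicate 2 gave −0.32, and leaving out replicate 1 of that genotype gave −0.87.

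The elastic fibre genes also differed in sign. Fbln1, fibulin 1, a glycoprotein of elastic fibres and basement membranes, read 5.79, 6.09 and 5.76 in Myd88−/− glands, against 6.58, 6.75 and 7.01 in Myd88+/+ glands. Its groups lay well apart, at −0.90 with an SE of 0.19 (limma's adjusted p = 0.321), and leaving out any 1 mouse gave −1.0 to −0.79. Mfap5, a microfibril glycoprotein, read 4.52, 4.69 and 4.41, against 4.90, 5.09 and 5.12 in Myd88+/+ glands, without overlap but under the background control median in every gland. Eln, the elastin gene itself, averaged 8.38 ± 0.38 in Myd88−/− and 8.20 ± 0.18 in Myd88+/+ glands (SD over 3 mice). Fbln5, which helps elastin assemble, read 6.96, 6.89 and 6.60 in Myd88−/− glands, against 6.23, 6.63 and 6.58 in Myd88+/+ glands, a difference of 0.34 in which only Myd88−/− replicate 3 overlapped Myd88+/+ values. Fbln2 had a difference of −0.03, with an SD of 0.18 among Myd88−/− and 0.67 among Myd88+/+ glands.

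Among the adhesive and matricellular glycoproteins, Sparc, which binds collagen and aids its secretion, read 12.10, 13.03 and 11.05 in Myd88−/− glands, against 13.12, 12.92 and 13.72 in Myd88+/+ glands. Myd88−/− replicate 2 lay within the Myd88+/+ range, so the groups overlapped. The difference of −1.19 (SE 0.44, limma's adjusted p = 0.440) ran from −1.68 without that gland to −0.69 without Myd88−/− replicate 3. Fn1, fibronectin, on which cells attach and fibrils are laid down, read 6.24, 5.96 and 5.88 in Myd88−/− glands, against 6.23, 6.69 and 7.07 in Myd88+/+ glands. The highest Myd88−/− value lay just above the lowest Myd88+/+ value, and the difference was −0.64, or −0.43 without Myd88+/+ replicate 3. Postn, periostin, averaged 9.76 ± 0.09 in Myd88−/− and 10.13 ± 0.48 in Myd88+/+ glands (SD over 3 mice), and its difference of −0.38 was −0.10 without Myd88+/+ replicate 3. Tnc, tenascin C, a glycoprotein of tissue repair, averaged 6.17 ± 0.25 in Myd88−/− and 6.15 ± 0.43 in Myd88+/+ glands (SD over 3 mice).

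The proteoglycans, proteins that carry glycosaminoglycan or related sugar chains and bind collagen or hyaluronan, had differences below 0 in 7 of 7 genes and were lower at an unadjusted p under 0.05 in 5. Of the 7, 6 were among the brighter probe sets, of which 60.6% were below 0 and 8.95% lower at that threshold. Prelp, which anchors basement membranes to the connective tissue below, read 7.91, 7.93 and 7.79 in Myd88−/− glands, against 8.66, 8.61 and 8.81 in Myd88+/+ glands. The spread within each genotype was small, and the difference of −0.82 (SE 0.16, limma's adjusted p = 0.321) ran from −0.86 to −0.77 without any 1 mouse. Bgn, biglycan, read 8.58, 10.05 and 9.26, against 10.11, 10.74 and 10.59 in Myd88+/+ glands. Here Myd88−/− replicate 2 nearly reached the Myd88+/+ values, and the difference of −1.18 (SE 0.34, limma's adjusted p = 0.384) ran from −1.56 without it to −0.83 without Myd88−/− replicate 1. Vcan, versican, the large hyaluronan-binding proteoglycan, read 6.12, 6.08 and 5.69 in Myd88−/− glands, against 6.54, 6.67 and 6.35 in Myd88+/+ glands, without overlap. Dcn, decorin, which coats collagen fibrils, read 17.18, 17.62 and 17.29, against 17.57, 17.96 and 17.93 in Myd88+/+ glands. Ogn, osteoglycin, read 12.29, 12.84 and 12.64, against 12.82, 13.02 and 13.71 in Myd88+/+ glands. In Dcn and Ogn, Myd88−/− replicate 2 crossed the lowest Myd88+/+ value, and the differences were −0.46 (SE 0.19) and −0.59 (SE 0.26). Dcn read near the top of the scale, which ends at 19.93. Lum and Fmod, relatives of decorin that also bind fibrils, had differences of −0.49 and −0.30 with overlap. Leaving out Myd88−/− replicate 2 put Lum at −0.81, and leaving out replicate 3 of that genotype put it at −0.20, while Fmod was at 0.014 without Myd88−/− replicate 1.

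The genes that process and cross-link collagen had differences below 0 in 5 of 5, although 1 of them, Pcolce, was at −0.0021. Of the 5, 4 were among the brighter probe sets, of which 60.6% were below 0. Crtap, part of the complex that hydroxylates proline in collagen chains, read 8.42, 8.72 and 8.37 in Myd88−/− glands, against 9.02, 9.04 and 9.16 in Myd88+/+ glands. No values overlapped, and the difference was −0.57 (SE 0.17, limma's adjusted p = 0.388). Crtap and Myd88 both lie on chromosome 9 with 31 protein-coding genes between them, so for Crtap the Myd88 allele and a linked segment from another strain cannot be told apart. Loxl1, a lysyl oxidase of elastic fibres, averaged 6.41 ± 0.51 in Myd88−/− and 6.96 ± 0.09 in Myd88+/+ glands, without overlap, and its difference of −0.56 was −0.27 without Myd88−/− replicate 3. Serpinh1, the collagen chaperone of the endoplasmic reticulum, averaged 6.07 ± 0.65 in Myd88−/− and 6.63 ± 0.14 in Myd88+/+ glands (SD over 3 mice), and its difference of −0.56 ran from −0.91 without Myd88−/− replicate 2 to −0.27 without Myd88−/− replicate 1. Lox, whose 6 values all lay under the background control median, had a difference of −0.31, or −0.19 when Myd88−/− replicate 3 was left out, and Pcolce, which enhances the trimming of procollagen, averaged 7.56 ± 0.30 in Myd88−/− and 7.56 ± 0.06 in Myd88+/+ glands (SD over 3 mice).

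Islr, an immunoglobulin-like protein with leucine-rich repeats made by stromal cells, had the largest difference of the 41 genes. It read 7.33, 7.10 and 6.84 in Myd88−/− glands, against 8.24, 8.36 and 9.19 in Myd88+/+ glands. The groups did not overlap, the mean difference was −1.51 (SE 0.26, limma's adjusted p = 0.321), and it was −1.21 without Myd88+/+ replicate 3. Pdgfrb, the growth factor receptor of pericytes and fibroblasts, averaged 6.09 ± 0.45 in Myd88−/− and 6.41 ± 0.13 in Myd88+/+ glands (SD over 3 mice), a difference of −0.31 that was −0.09 without Myd88−/− replicate 3.

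**Figure D3:**
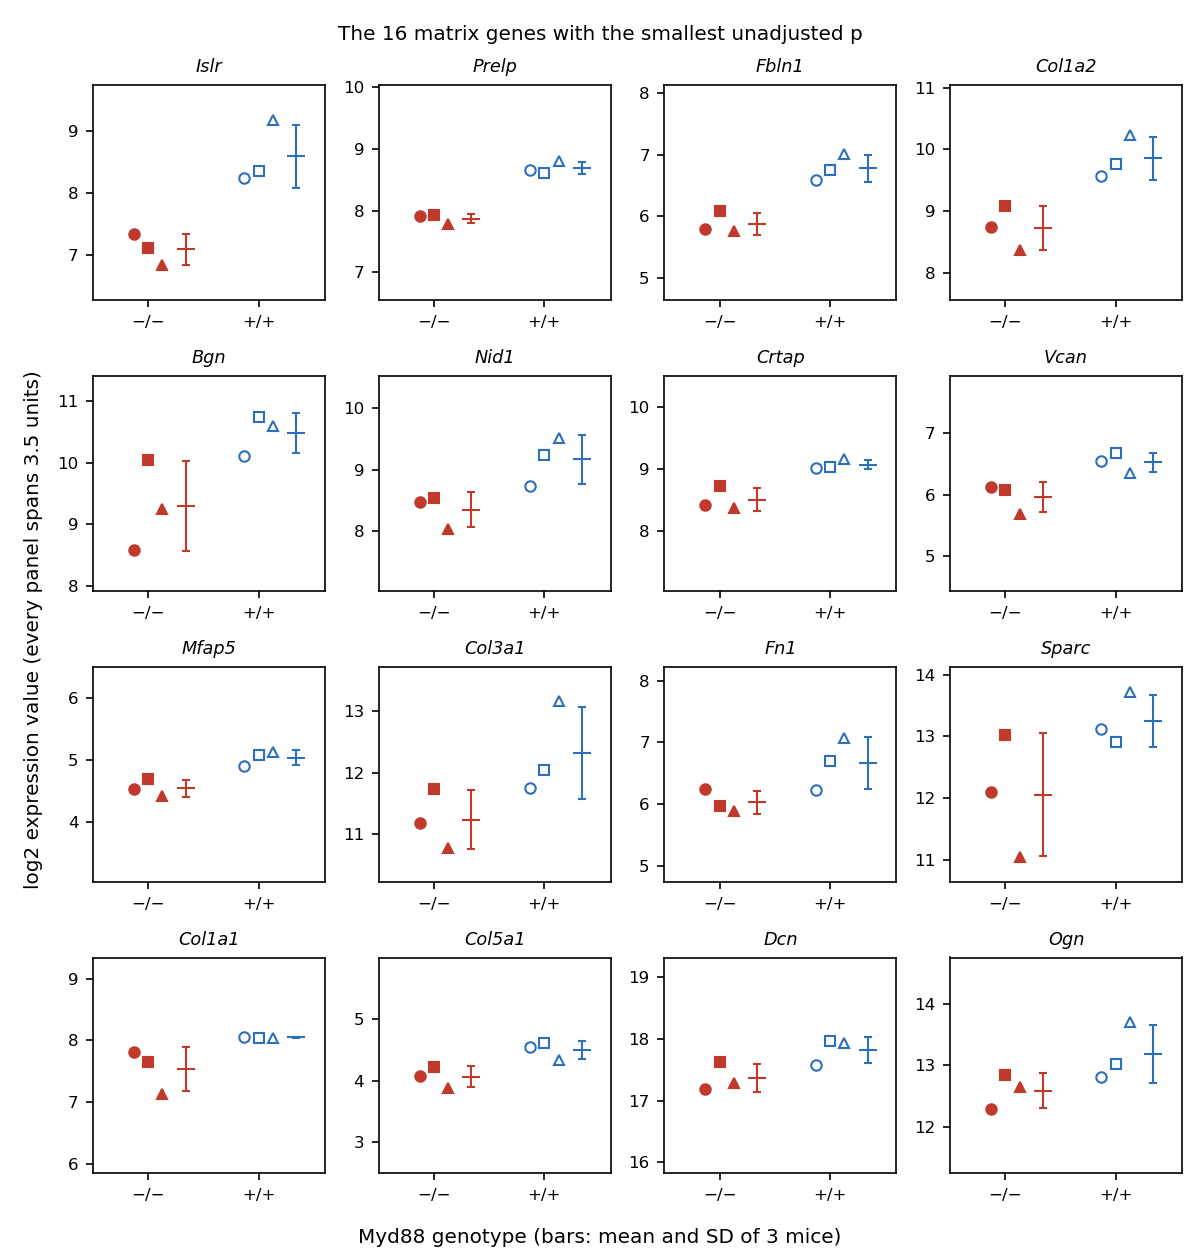
Log2 expression values of the 16 matrix genes with the smallest unadjusted p are shown per gland, Myd88−/− (filled red) left of Myd88+/+ (open blue), with the mean and SD of 3 mice as a bar beside each group; every panel spans 3.5 units. Prelp and Fbln1 show tight groups, whereas Sparc and Bgn spread widely among the Myd88−/− glands.

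The 16 genes lower at an unadjusted p under 0.05 were lowest in Myd88−/− replicate 3 in 13 cases and in Myd88−/− replicate 1 in 3. Within the Myd88−/− group, replicate 2 was the gland nearest to Myd88+/+ in 12 of the 16, and within the Myd88+/+ group, replicate 1 was nearest to Myd88−/− in 11. The array span was 6.95, 7.13 and 6.83 in the Myd88−/− glands, against 7.30, 7.10 and 7.20 in Myd88+/+ glands. Its order matched that of the mean matrix values among the Myd88−/− but not among the Myd88+/+ glands, and its part in the result was not tested. After quantile normalization, which gives all arrays the same span, 28 genes had a difference below 0, 13 were lower at an unadjusted p under 0.05 and the median was −0.37.

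Genes that lie next to each other did not always have like differences. No other protein-coding gene lies between Col3a1 and Col5a2, whose differences were −1.08 and −0.09. Of the other adjacent pairs, Dcn and Lum had −0.46 and −0.49, Fmod and Prelp −0.30 and −0.82, Col6a1 and Col6a2 0.06 and −0.35, and Col4a1 and Col4a2 0.12 and −0.05. Loxl1 and Islr lie on chromosome 9 with 3 genes between them, and had −0.56 and −1.51. Myd88 lies on the same chromosome, with 535 protein-coding genes between it and Loxl1, 539 between it and Islr and 1003 between it and Col5a3. The labels do not say whether a segment that differs between the genotypes reaches these genes. This order of genes comes from the RefSeq table of assembly GRCm38.p6.

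Promoter windows of 300 bases, 250 before and 50 after the annotated start, were available from RefSeq (GRCm38.p6) for 30 of the 41 genes. They were read to see what the genes share in sequence, with 4 short motifs searched on both strands: the TATA box TATAAA, the CCAAT box CCAAT, the GC box GGGCGG and the AP-1 site TGACTCA, each counted on its own also where matches touch. A GC box match was present in 19 of 30 windows (63.3%), against 35.7% of all 32851 windows, and the median GC content was 58.8% against 52.7%. A CCAAT match was present in 13 (43.3%, against 37.4%), a TATAAA match in 4 (13.3%, against 13.6%) and a TGACTCA match in 1 (3.33%, against 5.20%). Each of the 30 genes gave the window nearest its annotated gene start, whereas the 32851 windows were counted without such a choice. The shares therefore come from unlike sets. Windows of the 4 genes with the smallest p are shown to let their make-up be compared, followed by the Col4a1 window, from a gene pair whose differences were near 0 with overlap; capitals mark the motif matches. They are Islr (chr9:58158505-58158804, minus strand), Prelp (chr1:133921352-133921651, minus strand), Fbln1 (chr15:85205699-85205998, plus strand), Col1a2 (chr6:4505368-4505667, plus strand) and Col4a1 (chr8:11312777-11313076, minus strand), each 5′ to 3′ along its gene.
Islr: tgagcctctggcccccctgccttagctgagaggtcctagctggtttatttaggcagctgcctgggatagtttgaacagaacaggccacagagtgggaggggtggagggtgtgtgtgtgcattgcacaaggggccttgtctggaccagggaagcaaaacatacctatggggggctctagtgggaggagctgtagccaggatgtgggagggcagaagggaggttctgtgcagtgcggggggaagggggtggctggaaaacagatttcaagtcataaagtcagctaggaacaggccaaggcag
Prelp: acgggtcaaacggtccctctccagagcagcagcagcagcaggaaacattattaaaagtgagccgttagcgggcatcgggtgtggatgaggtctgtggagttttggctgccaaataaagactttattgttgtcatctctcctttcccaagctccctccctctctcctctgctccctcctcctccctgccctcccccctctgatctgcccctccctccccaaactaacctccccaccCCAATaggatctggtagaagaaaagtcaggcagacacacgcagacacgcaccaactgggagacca
Fbln1: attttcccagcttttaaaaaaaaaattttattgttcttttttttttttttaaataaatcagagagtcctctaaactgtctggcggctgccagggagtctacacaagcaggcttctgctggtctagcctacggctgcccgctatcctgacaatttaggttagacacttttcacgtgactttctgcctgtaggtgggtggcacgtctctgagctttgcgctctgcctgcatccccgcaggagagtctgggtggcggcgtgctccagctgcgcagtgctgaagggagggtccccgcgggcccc
Col1a2: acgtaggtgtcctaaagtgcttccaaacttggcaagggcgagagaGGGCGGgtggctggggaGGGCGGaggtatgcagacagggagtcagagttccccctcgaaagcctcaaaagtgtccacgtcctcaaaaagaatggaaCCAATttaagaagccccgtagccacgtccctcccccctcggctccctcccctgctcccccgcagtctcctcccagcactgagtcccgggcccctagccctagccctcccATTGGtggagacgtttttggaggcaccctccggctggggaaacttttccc
Col4a1: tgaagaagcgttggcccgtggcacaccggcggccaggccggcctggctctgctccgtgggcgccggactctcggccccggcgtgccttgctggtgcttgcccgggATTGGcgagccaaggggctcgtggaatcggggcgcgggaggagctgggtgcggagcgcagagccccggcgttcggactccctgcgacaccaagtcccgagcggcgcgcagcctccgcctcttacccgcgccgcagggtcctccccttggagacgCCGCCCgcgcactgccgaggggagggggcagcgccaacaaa
The Islr window holds none of the 4 motifs, the Prelp window holds 1 CCAAT match, the Fbln1 window holds none either, and the Col1a2 window holds 2 CCAAT and 2 GC box matches. Col4a1 and Col4a2 are transcribed away from each other, and their windows share 78 bases. A match is a description of letters and not a site that was shown to be used.

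Other genes of matrix biology, taken from lists of genes outside the 41, gave counts that are read against the brightness of their probe sets. Among the brighter 50% of probe sets 60.6% had a difference below 0, with 8.95% lower and 2.95% higher at an unadjusted p under 0.05. Among the dimmer 50% of them 65.5% had one above 0, with 2.15% lower and 6.05% higher at that threshold. Of 11 other laminin and basement membrane genes, 9 had a difference below 0, 2 were lower and 1 higher at an unadjusted p under 0.05, with a median of −0.30, and 8 of the 11 were among the brighter probe sets. Hspg2, perlecan, averaged 7.17 ± 0.29 in Myd88−/− and 7.91 ± 0.22 in Myd88+/+ glands (SD over 3 mice). Lama4, a laminin chain of vessels, had 6.62 ± 0.19 in Myd88−/− and 7.26 ± 0.34 in Myd88+/+ glands. Lamc3, another laminin chain, had 7.16 ± 0.13 in Myd88−/− and 6.76 ± 0.13 in Myd88+/+ glands. Of 20 other elastic fibre and glycoprotein genes, 15 were below 0 and 6 lower at an unadjusted p under 0.05, and 11 were among the brighter probe sets. They included Efemp1, a fibulin, with −0.70, Aspn, a relative of decorin, with −0.61 and Vtn, vitronectin, with −0.55. Of 27 other collagens, 22 had a difference above 0, with a median of 0.24, 3 higher and 1 lower at an unadjusted p under 0.05. Of these 27, 16 were among the dimmer probe sets, with 13 above 0, and 11 among the brighter, with 9 above 0. Means of 12 of them lay under the background control median, those of Col6a5 with 0.57 and Col24a1 with 0.52 included, while Col6a6 had −0.53.

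The enzymes that modify and trim collagen, 21 outside the 41, had a median of −0.08, with 12 below 0, 1 lower and 2 higher at an unadjusted p under 0.05, and 12 of the 21 were among the brighter probe sets. P3h1, which hydroxylates proline in a complex with Crtap, had 0.73 with both group means under the background control median. Plod1, a lysyl hydroxylase, had −0.57 and Loxl4, a lysyl oxidase, 0.60 with overlap. Of 18 genes of TGF-beta and other matrix-inducing signals, 14 were below 0 and 4 lower at an unadjusted p under 0.05, with a median of −0.18. Among the 14 of them that were brighter probe sets, 12 were below 0, against the 60.6% of all brighter probe sets. Of all brighter probe sets, 8.95% were lower at an unadjusted p under 0.05. Tgfbr3, a co-receptor for TGF-beta, had −0.62, Pdgfc, a growth factor for fibroblasts, −0.57 and Smad3, which carries the TGF-beta signal to the nucleus, −0.40, each without overlap. Of 15 receptors for collagen and laminin, 12 were below 0 and 0 passed an unadjusted p under 0.05 in either direction, with a median of −0.22, and 12 of the 15 were among the brighter probe sets, 9 of them below 0. Ddr1, a collagen receptor of epithelium, had −0.37, and the integrin subunits Itgb4 and Itgb5 had −0.25 and −0.29. None of the named genes passed limma's adjusted test, at adjusted p-values from 0.375 to 0.659.

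**Figure D4:**
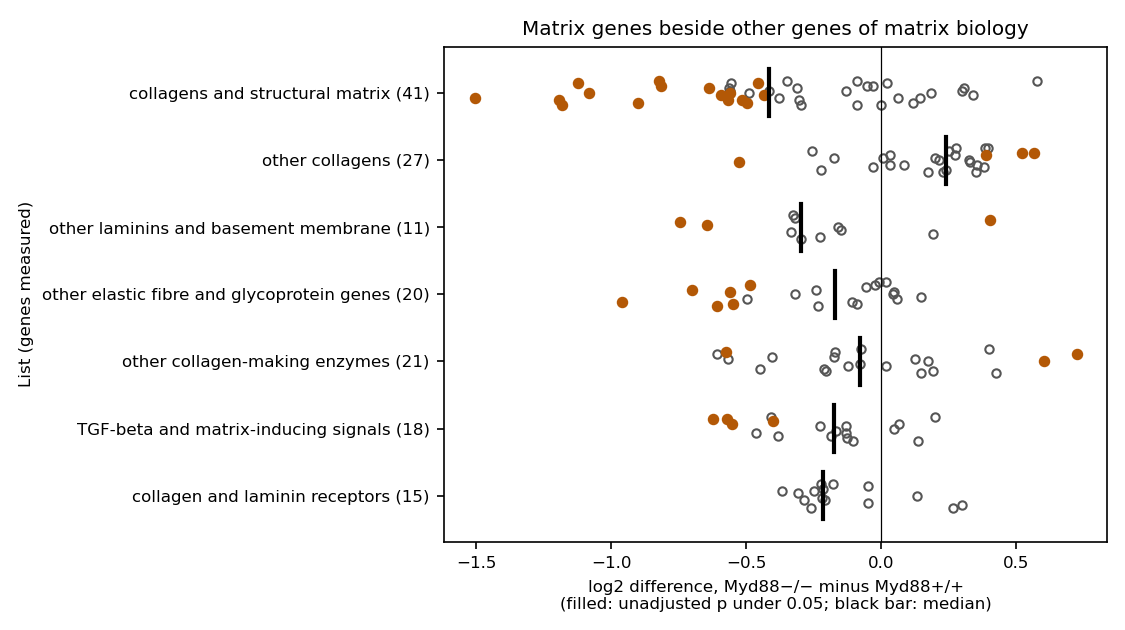
Each point is the log2 difference, Myd88−/− minus Myd88+/+, of 1 gene in the 41 collagens and structural matrix genes (top row) and in 6 lists of other matrix-related genes; filled points have an unadjusted p under 0.05 and black bars are medians. The medians lie between −0.42 in the top row and 0.24 in the other collagens.

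Markers of the cells that make matrix were set beside these values, and their part in the result was not tested. Of 18 measured fibroblast markers outside the 41, 18 had a difference below 0 and 7 were lower at an unadjusted p under 0.05, with a median of −0.30. Of the 18, 16 were among the brighter probe sets, of which 60.6% were below 0 and 8.95% lower at that threshold. The summed level of the 18, in units of 1000 unlogged expression units, was 16.7 to 20.01 in Myd88−/− and 26.3 to 35.6 in Myd88+/+ glands (exact permutation test, two-sided, p = 0.1, the smallest possible), with 0 of 18 under the background control median. Mmp2, a matrix-degrading protease of fibroblasts, averaged 8.47 ± 0.43 in Myd88−/− and 9.63 ± 0.37 in Myd88+/+ glands (SD over 3 mice). Cd34, also of endothelium, had 9.60 ± 0.20 in Myd88−/− and 10.32 ± 0.08 in Myd88+/+ glands. Gsn, gelsolin, had 13.55 ± 0.17 in Myd88−/− and 14.31 ± 0.26 in Myd88+/+ glands. It was the brightest of the 18 in every gland, so it weighs most in the summed level. The sum without Gsn was not computed. Thy1, a defining fibroblast surface marker, averaged 6.24 ± 0.18 in Myd88−/− and 6.50 ± 0.63 in Myd88+/+ glands (SD over 3 mice), with overlap. Igfbp6 read 7.29 and 7.51 in Myd88+/+ replicates 1 and 2, both under its Myd88−/− mean of 7.59, and 7.97 in replicate 3. Not all 18 markers were therefore below 0 without Myd88+/+ replicate 3. The mean over the 18 of the log2 value minus each gene's own mean was −0.03, 0.20 and 0.56 in Myd88+/+ glands, against −0.24, −0.19 and −0.30 in Myd88−/− glands.

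Of 12 pericyte and smooth muscle markers, 9 of them among the brighter probe sets, 10 were below 0, against 60.6% of all brighter probe sets. At an unadjusted p under 0.05, 2, Acta2 and Myl9, were lower, against 8.95% of the brighter probe sets. The summed levels of 7.75 to 14.01 in Myd88−/− and 12.5 to 21.3 in Myd88+/+ glands overlapped. Acta2 was the brightest of the 12 in every gland, so it weighs most in this sum. The markers Cspg4, Des and Mcam lay under the background control median. Rgs5, Notch3, Abcc9 and Kcnj8, of the same list, averaged above it and had differences of −0.21, −0.01, −0.04 and 0.12, each with overlap. Of 13 endothelial markers, 9 were below 0, or 69.2%, and 0 passed an unadjusted p under 0.05 in either direction. Of the 13, 9 were among the brighter probe sets, with 8 of them below 0, against 60.6% of all brighter probe sets. The other 4 were among the dimmer probe sets, with 1 below 0. The summed levels of 1.59 to 2.40 in Myd88−/− and 1.88 to 2.87 in Myd88+/+ glands overlapped, with Cldn5 under the background. Without Myd88−/− replicate 3, 5 of the 13 were below 0. Of 10 myoepithelial and basal markers, 8 were below 0 and 2, Trp63 and Acta2, lower at an unadjusted p under 0.05. Of these 10, 8 were among the brighter probe sets, of which 60.6% were below 0 and 8.95% lower at that threshold. Acta2 and Cnn1 are counted in the smooth muscle list too, and the summed levels of 15.1 to 25.9 in Myd88−/− and 19.8 to 29.1 in Myd88+/+ glands overlapped. Itga6 and Acta2 were the brightest of the 10 in every gland, so they weigh most in this sum. Trp63, the transcription factor of basal cells, read 9.14, 9.50 and 9.49 in Myd88−/− glands, against 10.54, 10.66 and 10.49 in Myd88+/+ glands.

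Leukocyte markers were set beside the matrix genes in the same way, and their part in the result was not tested either. All 11 macrophage markers, each among the brighter probe sets, were below 0, against 60.6% of all brighter probe sets. At an unadjusted p under 0.05, 8 were lower, against 8.95% of the brighter probe sets. The summed level of the 11 was 2.20 to 2.83 in Myd88−/− and 4.10 to 11.9 in Myd88+/+ glands. C1qb, a complement chain of macrophages, had a difference of −1.63, Csf1r, their growth factor receptor, −1.23 and Aif1, a calcium-binding protein, −1.22. Of 9 lymphocyte markers, 3 among the brighter and 6 among the dimmer probe sets, 8 were below 0, against 47.5% of all tested probe sets. At an unadjusted p under 0.05, 1, Ptprc, was lower, against 5.55% of all tested probe sets. Without Myd88+/+ replicate 3, 5 of the 9 were below 0. Their summed level was 0.870, 0.925 and 1.06 in Myd88−/− glands, against 1.16, 1.73 and 4.12 in Myd88+/+ glands, with replicate 3 far above the others, and with Cd3g, Cd8a, Cd79a and Cd79b under the background control median. Ptprc, the pan-leukocyte surface gene, read 8.28, 8.90 and 8.60 in Myd88−/− glands, against 9.28, 9.91 and 11.43 in Myd88+/+ replicates 1, 2 and 3. It was the brightest of the 9 in every gland and weighs most in their summed level, which therefore does not measure lymphocytes alone. The sum without Ptprc was not computed. The Myd88+/+ gland with the highest leukocyte values, replicate 3, was also the one with the highest Col3a1, Col1a2, Sparc, Ogn and Islr. Without it, the differences of these 5 genes were −0.66, −0.93, −0.96, −0.33 and −1.21. Of the 16 matrix genes lower at an unadjusted p under 0.05, 11 were highest in that gland. Bgn, Dcn, Vcan and Col5a1 were highest in Myd88+/+ replicate 2 and Col1a1 in replicate 1. Whether matrix and leukocyte values go together across glands was not tested.

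**Figure D5:**
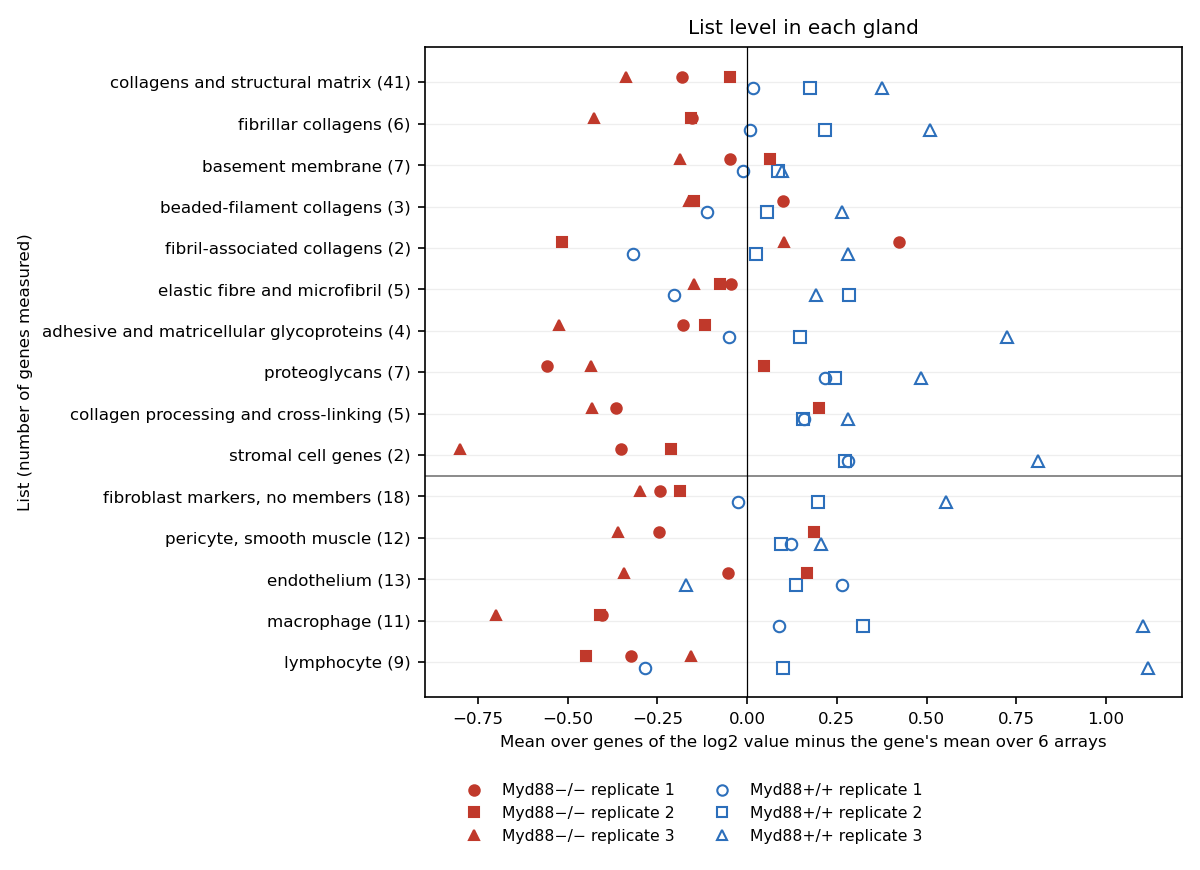
Each point is 1 gland, as the mean over the genes of a list of the log2 value minus the gene's mean over the 6 arrays, for the 41 matrix genes and their roles (above the line) and for cell type markers outside them (below it); filled red symbols are Myd88−/− and open blue symbols Myd88+/+ glands. Over the 41 genes the Myd88−/− glands span −0.34 to −0.05 and the Myd88+/+ glands 0.02 to 0.37.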

How the data were processed

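Total RNA of the submandibular gland of 6 mice was hybridised to 1 Clariom S array each. The deposited log2 values were computed by the authors with RMA, per the labels; the notes of the submitters name the Transcriptome Analysis Console. Its version, the RMA variant and the annotation build are not stated there. In general, RMA compresses differences near background and near the top of the scale.

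Of 28846 probe sets, 6640 controls were left out and 22206 tested, of which 19572 had 1 gene symbol in the platform annotation, 0 several and 2634 were unnamed here; the highest-mean probe set stood for a gene. Genotypes came from the sample titles. Differences, Myd88−/− minus Myd88+/+, were fitted with lmFit and eBayes of limma 3.58.1 under R 4.3.3, with neither an intensity trend nor covariates. P-values were adjusted by Benjamini-Hochberg across the 22206 tested probe sets, and the fit was tested on simulated data. Summed levels and array spans were compared with exact permutation tests. Nothing says whether the mice came from separate litters, so p-values measure only the spread between these arrays, whose number limits the precision.

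The 41 genes, the lists and the roles were chosen with earlier results of these data known. All genes are given by role, with the value in every mouse for the 16 with the smallest p, the type I, III, IV, V and VI collagen chains and the 3 largest positive differences; of other lists up to 3 genes with the smallest p were named. Thy1, Dcpp3, Aqp5, Krt18, Klk1, Prol1, Smr3a and the Col4a1 window were chosen after their values were seen. Alternatives were other normalizations, filters on dim probe sets, variance models, a replicate block and leaving out each mouse.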

Additional observations from a re-analysis of the deposited data

How the results depend on the processing

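Over the 14 alternatives, 25 of the 41 genes kept a difference below 0 in every setting run, among them all 16 that were lower at an unadjusted p under 0.05, and 5 kept one above 0. No member passed an adjusted p under 0.05 in any setting (0 of 41, lowest 0.154). Over all tested probe sets, 2 were called lower after median centring and 4 when eBayes used a trend and robust variances, and leaving out 1 mouse gave 0 to 5. Members lower at an unadjusted p under 0.05 numbered 9 without moderation of variances and 7 to 20 without 1 mouse. Members higher at that threshold numbered 1 after quantile normalization, 1 after median centring and 1 after cyclic loess, Col16a1 each time, and 0 to 1 without 1 mouse. Leaving out a mouse cannot lower the number of genes without overlap: members with all Myd88−/− values below all Myd88+/+ values then numbered 13 to 22 of 41, while the share of all probe sets was 10.9% to 15.5%. At the upper end, without Myd88−/− replicate 2, it was 53.7% of members against 15.5% of probe sets. The median difference was −0.51 to −0.32 without 1 mouse. Each member had 1 probe set, so averaging probe sets was not run. The causes of these shifts were not tested.

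Differences near 0 changed sign. After quantile normalization Lama2 was 0.033, Col4a2 0.040, Fbln2 0.070 and Pcolce 0.092. After cyclic loess Lama2 was 0.0073, Fbln2 0.053, Tnc −0.010 and Pcolce 0.067, and after median centring Tnc was −0.0013. Without 1 mouse the lowest and highest values were −0.53 and 0.014 for Fmod, −0.0016 and 0.38 for Eln, −0.032 and 0.27 for Col15a1, −0.24 and 0.024 for Col6a3, −0.24 and 0.046 for Col5a2, −0.20 and 0.12 for Lama2, −0.023 and 0.18 for Col6a1, −0.14 and 0.048 for Col4a2, −0.38 and 0.28 for Fbln2, −0.22 and 0.20 for Tnc and −0.17 and 0.12 for Pcolce.

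With the replicate number as a block, 16 members were lower at an unadjusted p under 0.05 and 0 higher, with 0 probe sets called. Deviations of same-numbered mice correlated at −0.113, −0.155 and −0.02 across probe sets, so same-numbered mice did not deviate together. These values cannot show whether such mice shared a litter or a processing day. Signal limits 5 members, Col5a1, Col5a2, Col5a3, Mfap5 and Lox, whose means lie under the background control median; over the other 36 the median difference was −0.44.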

Other observations

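Genes of skeletal muscle and fat, tissues that lie next to the gland, were also measured. No list was made for other salivary glands, so tissue from them in a sample was not tested. Dcpp3 read 14.91 in Myd88+/+ replicate 3, against 4.65 and 4.70 in the other Myd88+/+ glands. Of 8 skeletal muscle markers 7 had a difference above 0, or 4 after quantile normalization, and 1 to 5 of the 8 were below 0 when 1 mouse was left out. The lowest of the 8 was Ckm, the muscle creatine kinase, with −0.65 and no overlap. Of the 8 markers 5 did not reach the background control level, and the summed level was 0.425 to 0.530 in Myd88−/− and 0.410 to 0.547 in Myd88+/+ glands, in units of 1000 unlogged expression units. Of 7 adipocyte markers 3 were below 0 and 5, Adipoq, Plin1, Lep, Cidec and Retn, lay under the background control level. Pnpla2, a lipase of many tissues, gave 75.7% to 87.3% of the sum, and the summed levels of 5.64 to 5.88 in Myd88−/− and 5.46 to 6.83 in Myd88+/+ glands overlapped. Pmp22, a membrane protein of Schwann cells that fibroblasts also make, had means of 8.53 ± 0.15 in Myd88−/− glands and 9.18 ± 0.16 in Myd88+/+ glands (SD over 3 mice, limma's adjusted p = 0.368). Of 4 Schwann and nerve markers, Mbp and Ncmap lay under the background control level, and Sox10, which salivary epithelium also makes, gave 87.3% to 93.9% of the sum. The sums overlapped, at 5.28 to 7.16 in Myd88−/− and 5.27 to 9.67 in Myd88+/+ glands.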
